A study of Homo sapiens with 4 samples.

Results

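Untreated Huh7 cells were set against untreated cells labelled HepG2 over all 19739 coding genes and all 29119 long noncoding transcripts of the deposited tables. Each side is 1 library, so 2 of the 4 libraries of the study form this comparison. The labels call both human hepatocellular carcinoma lines and give DMEM with serum and antibiotics as the medium; the markers below go against the HepG2 label. In the other 2 libraries cells of the same lines had been exposed for 24 h to RSL3@O2-ICG NBS with low-frequency ultrasound. RSL3 is an inhibitor of the lipid peroxide reductase GPX4, and the labels do not say what NBS stands for. The treated pair shares no library with the untreated pair, and it is used here as the second reading of the same line difference. Nothing in the labels says whether the cultures of a line were separate, and no group has a replicate.

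Expression is given in FPKM, a level scaled by transcript length and by library size, so that levels of different genes can be set side by side. Where pairs of values are given, the untreated library comes first and the treated library second. The ratio used to rank genes is log2 of (Huh7 FPKM + 1) over (HepG2 label FPKM + 1), which understates the difference of low genes. No p-value exists within the untreated pair. The test available was limma on log2(FPKM + 1) of all 4 libraries with terms for line and treatment. It has 1 residual degree of freedom and asks whether the line difference was alike in both pairs, not whether repeat cultures would show it.

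Hepatocytes owe their identity to a small network of transcription factors, among them the HNF1, HNF4, FOXA and CEBP proteins, which bind one another's genes and the promoters of plasma protein genes. The cells they specify secrete albumin, clotting factors, complement and lipoproteins into blood and carry out the urea cycle, bile acid synthesis and drug oxidation. Lines derived from liver tumours usually hold part of this programme, often with fetal members such as alpha-fetoprotein.

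Of 12446 coding genes at 1 FPKM or more in at least 1 of the 2 untreated libraries, 785 (6.31%) were at least 4-fold higher in Huh7 and 653 (5.25%) at least 4-fold lower. The counts of list members below are to be set beside these shares, which are of tested genes. List totals are of genes measured, so the number tested is given too for each single list where it differs. The totals include members under 1 FPKM in both untreated libraries, which were not tested and could not be called. The median log2 ratio was -0.06, and the central 95% of genes lay between -2.79 and 3.10. In the treated pair 4.82% of tested genes were at least 4-fold higher and 5.72% lower. Of the 785 genes, 519 were at least 4-fold higher there too, and 10 had the opposite sign. Among the 653, 504 were again at least 4-fold lower and 8 had the opposite sign. By limma's line term with Benjamini-Hochberg adjustment, 2418 of 13030 genes (18.6%) were higher in Huh7 and 2487 (19.1%) lower. These include 763 of the 785 and 641 of the 653. The fit holds the same untreated libraries that defined those genes, so this overlap is partly built in. Across genes, the log2 ratios of the 2 pairs correlated at r = 0.883 and rho = 0.812; genes are not independent replicates. A set of 97 genes stood at 10 FPKM or more in both Huh7 libraries and under 0.1 FPKM in both labelled HepG2, with 50 of these listed at 0 there. The reverse held for 66 genes, 33 of them listed at 0 in both Huh7 libraries.

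**Figure D1:**
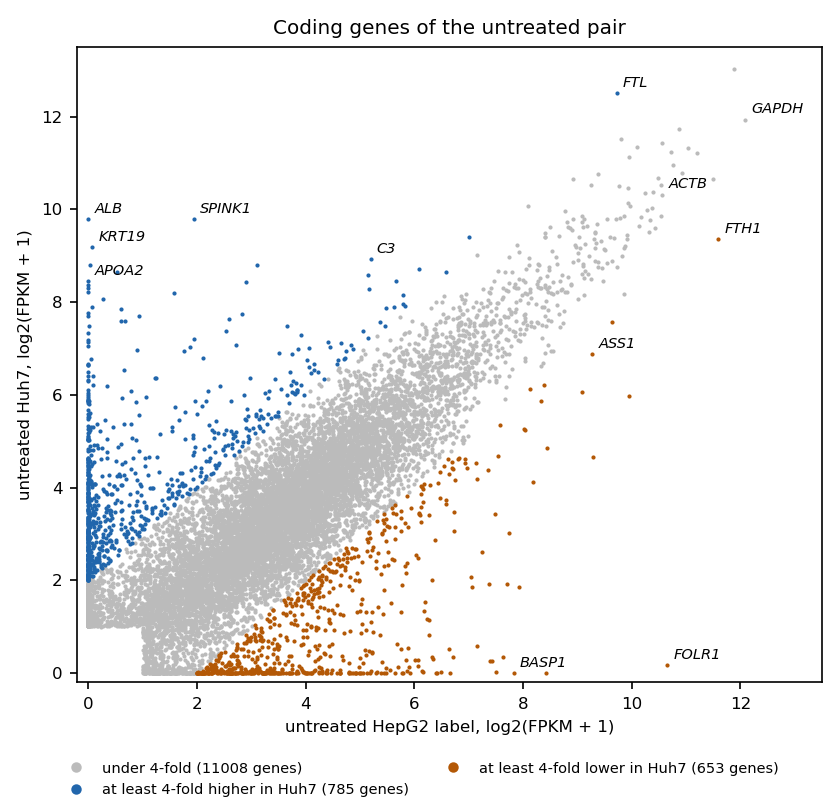
Each point is 1 of 12446 coding genes, with log2(FPKM + 1) of the untreated library labelled HepG2 on the x axis and of untreated Huh7 on the y axis. The 785 genes at least 4-fold higher in Huh7 include a column at 0 on the x axis led by ALB, and the 653 lower genes include a row at 0 on the y axis, with FOLR1 the furthest right of the genes under 1 FPKM in Huh7.

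The markers given for the 2 lines go against the HepG2 label and with the Huh7 label. HepG2 is known as a line that makes albumin and alpha-fetoprotein. In the libraries labelled HepG2, ALB was listed at 0 in both, AFP stood at 0.0154 and 0 FPKM, FOXA2 was listed at 0 in both and HNF4A stood at 0.449 and 0.166 FPKM. Those same libraries held FOLR1 at 1606 and 3129 FPKM, ALPP at 88.9 and 23.6 FPKM and MSLN at 32.3 and 47.1 FPKM. In Huh7 the pattern was the reverse, with ALB at 883 and 711 FPKM, AFP at 178 and 88.2 FPKM, and FOLR1 at 0.122 and 0.513 FPKM. In such bulk samples a smaller share of expressing cells and less RNA per cell cannot be told apart. Although the markers go against the HepG2 label, the cells are called by their label, and every direction below holds for libraries so labelled. On the longest coding transcript of ALB, 2263 bases, 3 fragments would give 0.0514 FPKM at the depth inferred for the untreated library. That depth, 22900000 to 26500000 fragments per library, was inferred from the spacing of low values and is approximate. In all, 11156 genes reached 1 FPKM in the untreated library labelled HepG2, 11444 in untreated Huh7 and 10154 in both.

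**Figure D2:**
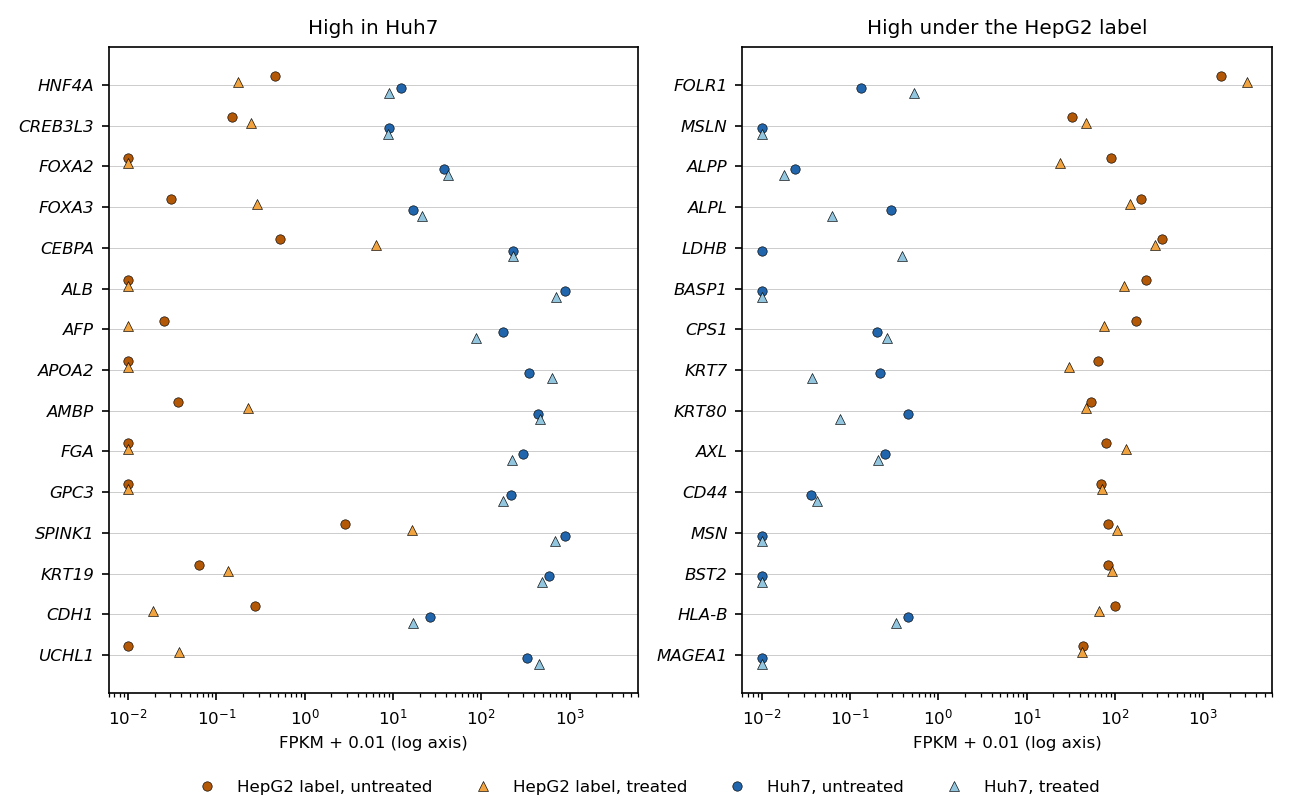
FPKM + 0.01 on a log axis for 30 genes in each of the 4 libraries; circles are untreated and triangles treated, with brown for the HepG2 label and blue for Huh7. The genes were picked with earlier results of these data known. In every gene shown the 2 libraries of a line lie on the same side of both libraries of the other line, and points at 0.01 are genes listed at 0.

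Some of the 30 genes with the highest and lowest ratios fall in none of the gene lists. NPPB, which encodes a natriuretic peptide of heart, stood at 0.0548 and 0.0289 FPKM under the HepG2 label and at 236 and 41.2 FPKM in Huh7. MSN, moesin, which ties membranes to actin, stood at 84.4 and 106 FPKM under the HepG2 label and was listed at 0 in both Huh7 libraries, as was BASP1, a membrane-bound protein of growth cones, at 226 and 127 FPKM. MYO10, a myosin of filopodia, stood at 99.5 and 60.7 FPKM against 0.00326 and 0 FPKM. CCN5, a secreted matricellular protein, stood at 181 and 49.8 FPKM against 0.0137 and 0.0317 FPKM. BACE2, a membrane protease, stood at 70.2 and 84.0 FPKM against 0.0176 and 0.0357 FPKM, and PLP2, a small membrane protein, at 141 and 163 FPKM against 0.506 and 0.393 FPKM. In each of these genes both libraries of a line lie on the same side of both libraries of the other. The 30 genes were picked among those at least 4-fold the same way in the treated pair. Agreement of the pairs was thus set by that choice and is no separate result.

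The liver transcription factors were high in Huh7 and partly absent under the HepG2 label. Of 22 measured, 20 were tested. Of these, 14 were at least 4-fold higher in untreated Huh7 and none lower, where 6.31% and 5.25% of all tested genes were. CEBPA, which drives hepatocyte and adipocyte differentiation, stood at 0.514 and 6.34 FPKM under the HepG2 label and at 229 and 228 FPKM in Huh7. It is uncertain in that 43.4% of its exonic bases overlap AC008738.3. FOXA3, a pioneer factor that opens liver chromatin, stood at 0.0202 and 0.279 FPKM against 16.9 and 21.3 FPKM. CREB3L3, a membrane-bound factor of liver lipid genes, stood at 0.139 and 0.234 FPKM against 9.09 and 8.81 FPKM. In none of these 3 genes do the lines overlap in level.

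Further factors of the network were at or under 0.651 FPKM in both libraries labelled HepG2. PROX1, which is needed for hepatoblast migration, was at 0 in both libraries of that label and at 7.46 and 10.8 FPKM in Huh7. ONECUT1, also called HNF6, stood at 0 and 0.0317 FPKM against 6.11 and 10.3 FPKM. NR0B2, the small heterodimer partner that represses bile acid synthesis, was at 0 in both against 6.39 and 3.57 FPKM, and its activator NR1H4, the bile acid receptor, stood at 0.106 and 0 FPKM against 6.62 and 4.72 FPKM. NR5A2, another activator of bile acid genes, stood at 0.573 and 0.651 FPKM against 18.3 and 14.1 FPKM. All of these are near-silent on 1 side and moderate on the other.

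Other members of the list did not separate the lines in this way. ONECUT2, a relative of ONECUT1, stood at 3.87 and 3.39 FPKM under the HepG2 label and at 4.81 and 6.97 FPKM in Huh7 (adjusted p = 0.17, limma). CEBPB, the relative of CEBPA induced in the acute phase response, was the only list member that limma called lower in Huh7, at 78.9 and 155 FPKM against 26.4 and 28.1 FPKM (log2 ratio -1.54, adjusted p = 0.0011). The drug-sensing receptors NR1I2 and NR1I3 were under 1 FPKM in all 4 libraries.

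Transcripts of secreted liver proteins were abundant in Huh7 and mostly missing under the HepG2 label. Over 4 lists of carriers, clotting proteins, complement and apolipoproteins, 44 of 88 measured genes were at least 4-fold higher in untreated Huh7 and 2 lower. By limma 48 were higher and 4 lower. In the untreated libraries 58 of the 88 reached 1 FPKM in Huh7 and 13 under the HepG2 label, and 35 were listed at 0 in both libraries of that label. Together they made up 1.5% of all coding FPKM in untreated Huh7 and 0.0746% under the HepG2 label, with 1.29% and 0.0799% in the treated pair.

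Among 30 carriers and acute phase proteins, 20 were tested, and 17 were at least 4-fold higher in untreated Huh7, with none lower. AMBP, the precursor of alpha-1-microglobulin and bikunin, stood at 0.0272 and 0.221 FPKM under the HepG2 label and at 444 and 461 FPKM in Huh7. ORM1, an acute phase glycoprotein, stood at 0 and 0.0531 FPKM against 208 and 151 FPKM; 47.4% of its 50-base words also occur in its copy ORM2, so the split between them is uncertain. RBP4, the carrier of retinol, was present on both sides, at 7.65 and 13.7 FPKM against 443 and 275 FPKM, 57.9-fold and 20.2-fold higher in Huh7. AGT, the precursor of angiotensin, stood at 0.511 and 1.86 FPKM against 191 and 122 FPKM. Huh7 itself lacked part of this list. HP, the haemoglobin-binding haptoglobin, stood at 0.443 and 0.168 FPKM in Huh7, HRG and FETUB were listed at 0 there, and CRP was listed at 0 in all 4 libraries.

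The clotting list had 21 members, 14 of them tested, with 12 at least 4-fold higher in untreated Huh7 and none lower. FGB and FGG, which with FGA make up fibrinogen, were at 0 under the HepG2 label, treated or not, while Huh7 held FGB at 161 and 90.0 FPKM and FGG at 145 and 79.3 FPKM. All 3 fibrinogen genes lie on a short stretch of chromosome 4 (154562956 to 154612967, GRCh38), with no other coding gene of the table among them, and all 3 reached 1 FPKM in both Huh7 libraries. F2, prothrombin, stood at 0.0385 and 0.0524 FPKM against 25.2 and 20.0 FPKM, and PROC, the anticoagulant protein C, at 0.329 and 0.914 FPKM against 10.4 and 9.88 FPKM. F12, the starter of the contact pathway, was lower in Huh7 by limma and past 4-fold in the treated pair only, at 1.30 and 3.94 FPKM against 0.118 and 0.128 FPKM (adjusted p = 0.011). The vitamin K-dependent factor F9 and plasminogen, PLG, were listed at 0 in all 4 libraries.

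Complement was the least one-sided of the secreted lists. Of its 19 members, 13 were tested, and 5 were at least 4-fold higher in untreated Huh7 and 2 lower. C3, on which all complement routes converge, stood at 35.6 and 35.6 FPKM under the HepG2 label and at 483 and 300 FPKM in Huh7, 13.6-fold and 8.44-fold higher. C5, which starts the membrane attack complex, stood at 1.36 and 2.80 FPKM against 81.3 and 68.3 FPKM. C4BPB, the beta chain of the C4b inhibitor, was the exception at 76.6 and 29.8 FPKM against 0.776 and 0.209 FPKM, while the gene of its alpha chain, C4BPA, stood between 0.0596 and 1.34 FPKM in all 4 libraries. CFB, a protease of the alternative pathway, was the other lower member, at 5.64 and 7.55 FPKM against 0.534 and 0.331 FPKM. It is uncertain because 78.2% of its 50-base words occur in AL645922.1.

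Of 18 apolipoproteins and lipoprotein assembly genes, 14 were tested, and 10 were at least 4-fold higher in untreated Huh7 and none lower. APOA2, a main protein of high-density lipoprotein, was at 0 under the HepG2 label, treated or not, and reached 349 and 628 FPKM in Huh7. APOB, the scaffold of very-low-density lipoprotein, stood at 0 and 0.00612 FPKM against 59.6 and 89.3 FPKM. MTTP, which loads lipid onto it, stood at 0.0365 and 0.0412 FPKM against 16.7 and 5.27 FPKM. APOE, a ligand of the LDL receptor, stood at 0.204 and 2.76 FPKM against 268 and 414 FPKM. It lies in a 43.8 kb cluster on chromosome 19 with APOC1, APOC2 and APOC4.

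The promoters of these genes show a sequence feature that the comparison did not use. The HNF1 half-site was searched as GTTAAT on either strand in the 250 bases before each start in RefSeq's promoter table (GRCh38.p14). It occurs for 20 of the 66 secreted liver genes that have an entry (30.3%), for 11 of the 33 entries among the members at least 4-fold higher (33.3%) and for 7.50% of all 27305 genes in the table. Of the genes at least 4-fold higher in untreated Huh7 and with an entry, 11% hold it, against 5.81% of those at least 4-fold lower and 5.25% of all tested genes. The shares for an HNF4 core (CAAAGTCC) were 4.55% of the secreted genes and 1.26% of all, for a FOXA core (TGTTTAC) 10.6% and 3.66%, and for the TATA box (TATAAA) 19.7% and 13%. A CEBP site (TTGCGCAA) was in none of the secreted genes' windows and in 0.146% of all. Other motifs also differed among the higher, lower and all tested genes, in that order. The HNF4 core had 3.43%, 1.87% and 1.39%, and the FOXA core 4.29%, 1.24% and 3.08%. The TATA box had 14.8%, 10.8% and 7.71%, and the CEBP site 0.172%, 0.622% and 0.265%. An excess among the higher genes is thus not particular to the half-site. No motif of the 5 contains another, and a match is only a match of letters. The first 4 sequences were picked because these abundant liver genes hold the half-site, in capitals, and the last 3 are of genes that were high under the HepG2 label and hold none. Other secreted genes at least as abundant in untreated Huh7 as FGB and with an entry, such as RBP4, APOA2, ORM1 and AGT, hold none in this window. They are the 250 bases before the RefSeq start on the gene's strand, 5′ to 3′.
ALB, chr4:73404037-73404286, plus strand: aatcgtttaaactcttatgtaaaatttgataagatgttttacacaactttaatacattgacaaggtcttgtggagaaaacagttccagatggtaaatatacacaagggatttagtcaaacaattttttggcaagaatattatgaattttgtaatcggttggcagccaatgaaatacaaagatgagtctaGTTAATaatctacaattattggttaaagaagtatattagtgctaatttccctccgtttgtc
AFP, chr4:73435971-73436220, plus strand: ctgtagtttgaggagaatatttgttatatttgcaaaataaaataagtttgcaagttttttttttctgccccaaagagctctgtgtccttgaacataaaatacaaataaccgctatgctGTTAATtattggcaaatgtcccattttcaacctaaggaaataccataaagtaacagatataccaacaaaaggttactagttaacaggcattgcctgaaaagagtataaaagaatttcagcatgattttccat
FGA, chr4:154590743-154590992, minus strand: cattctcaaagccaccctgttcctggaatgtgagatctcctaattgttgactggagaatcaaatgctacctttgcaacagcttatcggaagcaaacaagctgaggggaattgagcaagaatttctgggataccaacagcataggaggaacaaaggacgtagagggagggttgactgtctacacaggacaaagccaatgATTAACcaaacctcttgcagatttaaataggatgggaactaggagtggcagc
FGB, chr4:154562730-154562979, plus strand: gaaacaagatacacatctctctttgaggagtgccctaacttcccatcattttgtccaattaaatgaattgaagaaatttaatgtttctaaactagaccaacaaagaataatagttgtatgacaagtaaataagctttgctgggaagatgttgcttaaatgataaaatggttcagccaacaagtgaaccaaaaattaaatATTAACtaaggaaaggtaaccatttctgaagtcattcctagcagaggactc
ALPP, chr2:232378501-232378750, plus strand: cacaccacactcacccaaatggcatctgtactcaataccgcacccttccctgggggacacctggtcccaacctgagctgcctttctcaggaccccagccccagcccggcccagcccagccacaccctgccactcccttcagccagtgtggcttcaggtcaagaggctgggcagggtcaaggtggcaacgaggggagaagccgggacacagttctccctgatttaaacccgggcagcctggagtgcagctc
CD44, chr11:35138921-35139170, plus strand: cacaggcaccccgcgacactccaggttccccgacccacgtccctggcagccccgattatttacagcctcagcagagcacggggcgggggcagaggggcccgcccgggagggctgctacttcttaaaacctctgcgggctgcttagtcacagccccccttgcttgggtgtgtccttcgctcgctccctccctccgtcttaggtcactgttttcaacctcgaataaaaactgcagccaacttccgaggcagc
LDHB, chr12:21657843-21658092, minus strand: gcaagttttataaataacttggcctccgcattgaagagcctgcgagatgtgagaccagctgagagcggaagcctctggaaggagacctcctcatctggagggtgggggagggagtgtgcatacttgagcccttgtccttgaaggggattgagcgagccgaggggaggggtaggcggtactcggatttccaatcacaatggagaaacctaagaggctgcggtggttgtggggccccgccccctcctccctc

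The windows of the 4 liver genes are 30% to 45.2% G and C, and those of the other 3 are 58.0% to 62.8%. Base composition and the presence of an A and T-rich half-site move together here, and the part of composition in the shares above was not tested. The half-site lies on the strand shown in ALB and AFP and on the opposite strand, read as ATTAAC, in FGA and FGB.

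The metabolic side of the hepatocyte was thin in both lines, and single genes of it favoured the HepG2 label. Of 19 genes of the urea cycle, amino acid breakdown and gluconeogenesis, 11 were tested, and 2 were at least 4-fold higher in untreated Huh7 and 2 lower. In the treated pair 3 were higher and 1 lower, and limma called 7 higher and 3 lower. Members at 1 FPKM or more numbered 6 and 7 under the HepG2 label and 9 and 11 in Huh7. CPS1, the entry enzyme of the urea cycle and a mitochondrial hepatocyte marker, stood at 171 and 74.8 FPKM under the HepG2 label and at 0.191 and 0.251 FPKM in Huh7. ASS1, the third step, stood at 620 and 591 FPKM against 117 and 158 FPKM, 5.31-fold and 3.73-fold lower in Huh7. The cycle was not complete on either side: OTC was at 0, 0, 0 and 0.019 FPKM, ARG1 was listed at 0 in all 4, and ASL stood between 20.0 and 29.3 FPKM in all 4. HGD, which opens the ring of homogentisate in tyrosine breakdown, stood at 0.0593 and 0.0831 FPKM against 73.7 and 102 FPKM. The gluconeogenic genes PCK1 and G6PC were at or near 0 everywhere.

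Bile acid and transporter genes had 19 members, 8 of them tested, with 5 at least 4-fold higher in untreated Huh7 and none lower. They include a whole signalling chain: the ligand FGF19 at 0 and 0.0237 FPKM against 13.3 and 3.98 FPKM, its receptor FGFR4 at 3.31 and 6.51 FPKM against 110 and 77.3 FPKM, and the co-receptor KLB at 0 in both against 16 and 12 FPKM. CYP8B1, a hydroxylase of bile acid synthesis, was listed at 0 in all 4 libraries. CYP27A1, of the alternative route, stood at 0.0765 and 0.0939 FPKM against 11.3 and 14.6 FPKM. ABCC2, a canalicular export pump, was lower in Huh7 by limma, at 32.3 and 34.9 FPKM against 12.6 and 19.6 FPKM (adjusted p = 0.013). The bile acid importer SLC10A1 stayed under 0.1 FPKM in every library.

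Of 28 drug metabolism enzymes, 7 were tested. Of these, 5 were at least 4-fold higher in untreated Huh7 and none was lower, and 7 of the 28 reached 1 FPKM there. ALDH1A1, a retinal dehydrogenase, stood at 0 and 0.0195 FPKM under the HepG2 label and at 317 and 384 FPKM in Huh7. SULT2A1, which sulphates steroids and bile acids, stood at 0.0204 and 0 FPKM against 28.8 and 27.3 FPKM. CYP1A1, an inducible enzyme of dioxin-type compounds, was read on both sides at 1.89 and 5.05 FPKM against 17.3 and 48.8 FPKM. The adult drug oxidases CYP3A4 and CYP2E1 were under 0.2 FPKM in all 4 libraries.

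Fetal liver and liver cancer genes were high in Huh7. Of 15, 14 were tested, and 9 were at least 4-fold higher in untreated Huh7 and 0 lower. GPC3, a cell-surface proteoglycan used to mark hepatocellular carcinoma, was at 0 under the HepG2 label, treated or not, and reached 217 and 176 FPKM in Huh7. SPINK1, a secreted trypsin inhibitor, stood at 2.85 and 16.3 FPKM against 879 and 689 FPKM. LIN28B, which blocks let-7 maturation, was at 0 in both against 15.9 and 23.5 FPKM. IGF2BP3, an oncofetal RNA-binding protein, was the lower in Huh7 in both pairs, though under 4-fold. It read 20.8 and 32.1 FPKM against 14.0 and 19.1 FPKM (adjusted p = 0.067, limma), and SALL4 stood between 1.17 and 1.59 FPKM in all 4.

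Wnt targets were divided. Of 15, 12 were tested, and 3 were at least 4-fold higher in untreated Huh7 and 2 lower. GLUL, glutamine synthetase of the hepatocytes around the central vein, stood at 7.42 and 14.9 FPKM against 35.3 and 45.7 FPKM, and SP5, a transcription factor, at 0.867 and 0.370 FPKM against 10.3 and 11.6 FPKM. NKD2, an inhibitor of the pathway, was lower in Huh7 at 9.75 and 17.9 FPKM against 1.29 and 2.96 FPKM. AXIN2, the most general target, stood at 1.83 and 1.03 FPKM against 2.21 and 2.39 FPKM (adjusted p = 0.27, limma).

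**Figure D3:**
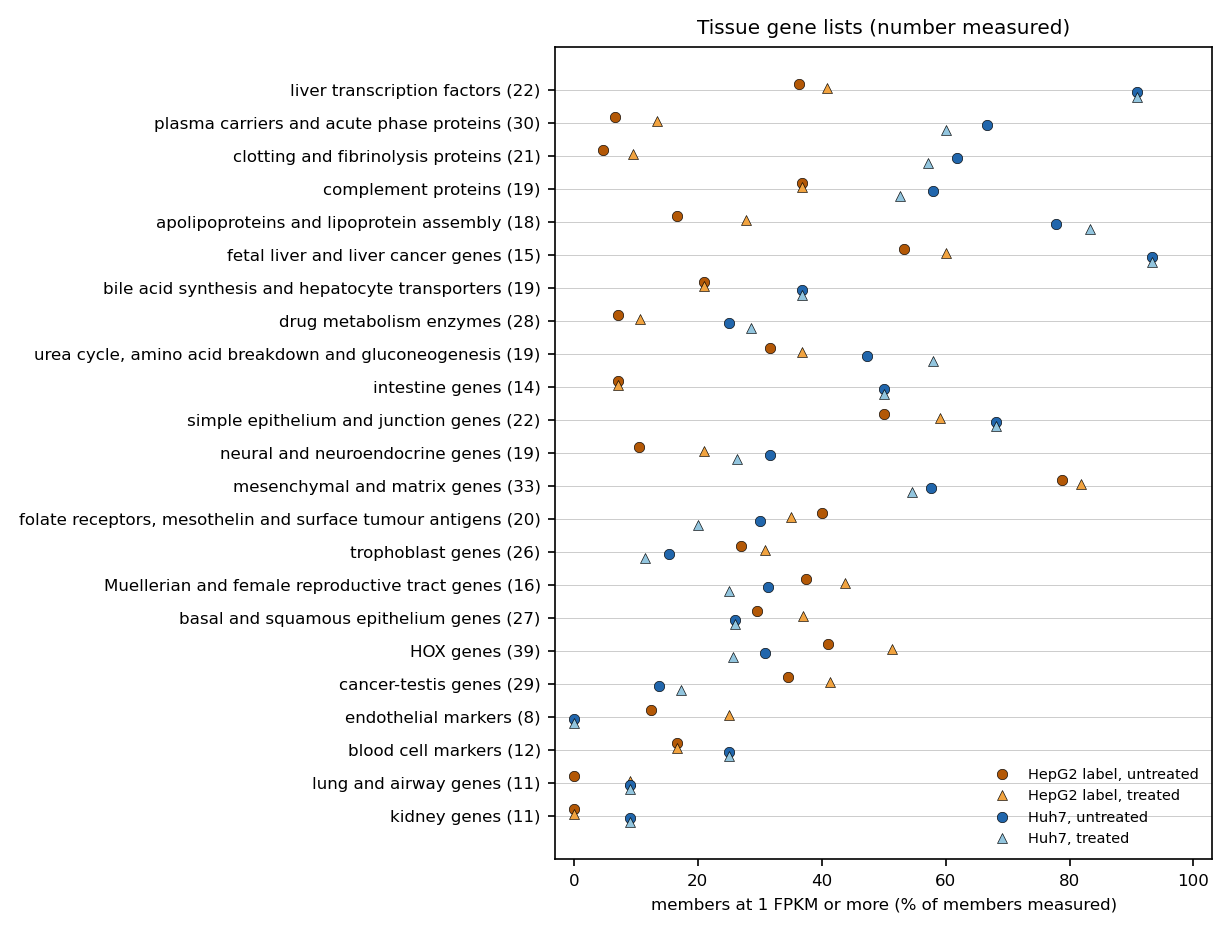
For 23 gene lists, the share of measured members at 1 FPKM or more in each of the 4 libraries, with the number measured in brackets; circles are untreated and triangles treated. Huh7 lies to the right for every liver list, as with 58 of 88 secreted protein genes against 13, and the HepG2 label lies to the right for mesenchymal, trophoblast, HOX and cancer-testis lists.

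What the untreated library labelled HepG2 held in place of the liver genes was spread over several lists. In the list of 20 surface tumour antigens 11 were tested, and 7 were at least 4-fold lower in untreated Huh7 and 3 higher. MUC1, a membrane mucin of glandular cells, stood at 17.7 and 31.9 FPKM under the HepG2 label and at 1.30 and 0.529 FPKM in Huh7. L1CAM, an adhesion molecule of neurons and invasive carcinomas, stood at 64.4 and 67.1 FPKM against 4.84 and 2.23 FPKM. FOLR1 was the coding gene with the lowest log2 ratio, while its relatives FOLR2 and FOLR3 were under 1 FPKM in all 4 libraries. CA9, a carbonic anhydrase induced by hypoxia, was 4-fold lower in the untreated pair only, at 4.23 and 0.054 FPKM against 0.204 and 0 FPKM (adjusted p = 0.11, limma). The 3 higher in Huh7 were CD24 at 34.9 and 23.7 FPKM against 309 and 276 FPKM, CEACAM1 at 0.0342 and 0.313 FPKM against 8.45 and 7.38 FPKM, and CLDN6 at 0.0856 and 0.224 FPKM against 9.92 and 3.38 FPKM.

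All 4 alkaline phosphatases, enzymes that strip phosphate at the cell surface, were at least 4-fold lower in untreated Huh7. ALPL, the bone, liver and kidney form, stood at 198 and 148 FPKM under the HepG2 label and at 0.282 and 0.0517 FPKM in Huh7. ALPI, the intestinal form, stood at 26.9 and 14.0 FPKM against 0.164 and 0.148 FPKM. ALPG, the germ cell form, stood at 3.33 and 1.01 FPKM and was listed at 0 in both Huh7 libraries. ALPP, ALPG and ALPI lie in 82.0 kb of chromosome 2 (232378724 to 232460753, GRCh38), and all 3 reached 1 FPKM in both libraries labelled HepG2 and in neither of Huh7. ALPP shares 26.2% of its 50-base words, mostly with ALPG, so a part of the smaller signal may be misassigned. ALPL lies apart on chromosome 1.

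Markers of trophoblast, of the female reproductive tract and of squamous epithelium were each present under the HepG2 label in part only. Of 26 trophoblast genes, 9 were tested, and 5 were at least 4-fold lower in untreated Huh7 and 2 higher. TFAP2A and TFAP2C, AP-2 factors of trophoblast and skin, were both on the HepG2 side. TFAP2A read 10.5 and 9.15 FPKM against 1.07 and 0.316 FPKM in Huh7, and TFAP2C read 9.77 and 5.41 FPKM against 0 in both. The hormone genes CGA and CSH1 were listed at 0 in all 4 libraries, and GCM1 stayed under 0.1 FPKM. Not every placental product was silent under the HepG2 label. PSG4, a pregnancy-specific glycoprotein gene, had a log2 ratio of -2.035 and was listed at 0 in untreated Huh7. The hormone gene CGB8 had a log2 ratio of -0.789, under 4-fold. KRT23 was the largest exception, at 0.0133 and 0 FPKM against 47.0 and 19.5 FPKM.

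Of 16 Muellerian and female reproductive tract genes, 8 were tested, and 4 were at least 4-fold lower in untreated Huh7 and 1 higher. The factors PAX8, WT1, ESR1 and PGR were under 1 FPKM everywhere. SOX17, also a factor of this tract, was on the HepG2 side, with a log2 ratio of -2.208 and a listing at 0 in untreated Huh7. HOXA11 is counted again among the HOX genes below. HOXA11, a uterine and limb HOX gene, stood at 16.3 and 8.53 FPKM against 2 and 2 FPKM, with 31.1% of its exonic bases overlapping HOXA11-AS. OVGP1, the oviduct glycoprotein, was the higher one, at 0.474 and 1.84 FPKM against 5.29 and 4.53 FPKM.

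Of 27 basal and squamous genes, 10 were tested, and 5 were at least 4-fold lower in untreated Huh7 and 1 higher. KRT17, a keratin of basal and wounded epithelium, stood at 36.5 and 19.1 FPKM under the HepG2 label and at 0.379 and 0.173 FPKM in Huh7. TRIM29, a p63-associated protein, stood at 74.5 and 34.2 FPKM against 1.26 and 0.317 FPKM. The defining basal genes KRT5, KRT14 and DSG3 were listed at 0 in all 4 libraries, and TP63 stood at 0.110 and 0.0462 FPKM under the HepG2 label. LAMB3, a laminin chain of basement membranes, stood at 15.4 and 6.16 FPKM against 1.84 and 1.08 FPKM.

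Epithelial keratins and junctions divided between the lines by gene. Of 22 simple epithelium genes, 18 were tested, and 8 were at least 4-fold higher in untreated Huh7 and 2 lower. KRT19, a bile duct and progenitor keratin, stood at 0.0534 and 0.124 FPKM under the HepG2 label and at 578 and 482 FPKM in Huh7. KRT7, which in liver also marks bile ducts, was the reverse at 63.8 and 29.9 FPKM against 0.207 and 0.0269 FPKM. KRT80, a further intermediate filament gene, followed KRT7 at 52.9 and 46.4 FPKM against 0.444 and 0.0673 FPKM. The pair KRT8 and KRT18, found in all simple epithelia, was high throughout, with KRT8 at 890 and 749 FPKM against 2936 and 1227 FPKM.

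E-cadherin, CDH1, which holds epithelial cells together, stood at 0.266 and 0.00898 FPKM under the HepG2 label and at 26.1 and 16.8 FPKM in Huh7. OCLN, occludin of tight junctions, stood at 0.0775 and 0.144 FPKM against 15.9 and 14.1 FPKM, and EPCAM at 0.908 and 1.37 FPKM against 46.5 and 42.6 FPKM. CLDN4, a claudin, was past 4-fold in the treated pair only, at 4.85 and 49.4 FPKM against 3.10 and 1.17 FPKM (adjusted p = 0.037, limma).

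Of 33 mesenchymal and matrix genes, 28 were tested, and 9 were at least 4-fold lower in untreated Huh7 and 5 higher. AXL, a receptor kinase of mesenchymal-like carcinoma cells, stood at 80.0 and 134 FPKM under the HepG2 label and at 0.241 and 0.195 FPKM in Huh7. CD44, the hyaluronan receptor, stood at 69.5 and 70.3 FPKM against 0.0264 and 0.0325 FPKM. TWIST2, a factor that represses E-cadherin, stood at 12.3 and 11.8 FPKM and was listed at 0 in both Huh7 libraries. The matrix genes split by collagen chain: COL4A2 stood at 78.7 and 52.4 FPKM against 0.278 and 0.0326 FPKM and COL5A1 at 42.5 and 16.2 FPKM against 0.00885 and 0 FPKM. COL5A2, the partner chain of COL5A1, was the reverse at 0.0361 and 0.0438 FPKM against 109 and 29.8 FPKM. FN1, fibronectin, which hepatocytes secrete into plasma, stood at 1.98 and 1.21 FPKM against 294 and 232 FPKM, 149-fold and 192-fold higher in Huh7.

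A few intestinal and neural genes were high in Huh7. Of 14 intestine genes, 7 were tested, and 5 were at least 4-fold higher in untreated Huh7 and 1 lower. CDX2, the master factor of intestinal epithelium, was at 0 under the HepG2 label, treated or not, and reached 10.6 and 8.26 FPKM in Huh7. VIL1, villin of microvilli, stood at 0.00596 and 0.0397 FPKM against 57.2 and 28.1 FPKM, with 44.0% of its exonic bases overlapping USP37. The mucin MUC13 was the lower one, at 71.5 and 65.0 FPKM against 1.54 and 1.24 FPKM, and FABP2 and GPA33 were listed at 0 in all 4. Among 19 neural genes 6 were tested, and 3 were at least 4-fold higher in untreated Huh7, with none lower. The 3 were UCHL1, a neuronal ubiquitin hydrolase, at 0 and 0.0273 FPKM against 330 and 457 FPKM, NES, the filament nestin, at 0.839 and 3.41 FPKM against 56.8 and 47.3 FPKM, and TUBB3. The neuronal genes NEFH, ELAVL3 and INSM1 were listed at 0 in all 4 libraries.

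Markers of other cell types were at or near 0 with exceptions in single genes. Of 8 endothelial markers none was at least 4-fold higher in untreated Huh7 and 1 lower, of 12 blood cell markers 2 were higher and none lower, and of 11 fibroblast and stellate markers 1 was higher and 1 lower. PTPRC and CD3E of leukocytes were listed at 0 in all 4 libraries, as was KDR of endothelium. ESAM, an adhesion molecule of endothelium, stood at 34.9 and 79.3 FPKM under the HepG2 label and at 0.400 and 0.664 FPKM in Huh7. LUM, a proteoglycan of connective tissue, stood at 0.0146 and 0.0162 FPKM against 31.7 and 8.05 FPKM, and PDGFRB, a growth factor receptor of stromal cells, at 5.67 and 1.67 FPKM against 0.471 and 0.0579 FPKM. CD14, known from monocytes and also made by hepatocytes, stood at 0.0472 and 0.236 FPKM against 15.1 and 2.21 FPKM. Of 11 lung and airway genes none was past 4-fold in either direction, and FOXJ1 alone reached 1 FPKM in the untreated pair, at 2.09 FPKM in Huh7. Of 11 kidney genes only 1 was tested, and it was higher: LRP2, an endocytic receptor, at 0 in both against 3.02 and 1.06 FPKM. None of 11 prostate, breast and bladder genes, 3 of them tested, was past 4-fold in the untreated pair.

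HOX genes, which record position along the body axis, differed mostly in one direction. Of 39 measured, 18 were tested. Of those, 4 were at least 4-fold lower in untreated Huh7 and none higher, beside 5.25% and 6.31% of all tested genes. Limma called 10 of the 39 lower and 2 higher. The 4 come from the 5′ end of their clusters: HOXA10, HOXA11, HOXA13 and HOXC11. HOXC11 stood at 10.3 and 7.06 FPKM under the HepG2 label and at 0.423 and 0.732 FPKM in Huh7. In the treated pair 1 of the 4, HOXC11, kept a 4-fold difference.

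Cancer-testis genes, germ cell genes mostly on chromosome X that tumours often re-express, were read in different members. Of 29, 11 were tested, and 6 were at least 4-fold lower in untreated Huh7 and 1 higher. MAGEA1 stood at 43.6 and 41.8 FPKM under the HepG2 label and was listed at 0 in both Huh7 libraries, and PAGE1 stood at 23.8 and 27.9 FPKM against 0 and 0.133 FPKM. MAGEB2 was the reverse, at 83.2 and 58.1 FPKM in Huh7 and at 0 under the HepG2 label. PRAME, on chromosome 22, stood at 10.8 and 16.6 FPKM against 8.50 and 8.34 FPKM. CT45A1 and the MAGEA3 and MAGEA6 pair have near-identical copies, so their single values are uncertain.

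MHC class I genes, which show peptides to T cells, were low in Huh7 as a group. Of 14 members, 6 were at least 4-fold lower in untreated Huh7 and none higher, and limma called 12 lower and 1 higher. HLA-B, a heavy chain, stood at 98.9 and 65.6 FPKM under the HepG2 label and at 0.438 and 0.324 FPKM in Huh7. B2M, the shared light chain, differed less, at 376 and 283 FPKM against 123 and 98.8 FPKM. NLRC5, the transactivator of these genes, stood at 29.7 and 26.8 FPKM against 1.51 and 5.52 FPKM, and the immunoproteasome subunit PSMB8 at 36.7 and 42.0 FPKM against 0.852 and 0.936 FPKM. BST2, an interferon-inducible tether of enveloped viruses, stood at 83.8 and 92.3 FPKM and was listed at 0 in both Huh7 libraries. ERAP1, a peptide-trimming enzyme, was the member higher in Huh7, at 7.54 and 11.8 FPKM against 14 and 19 FPKM (adjusted p = 0.049, limma).

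**Figure D4:**
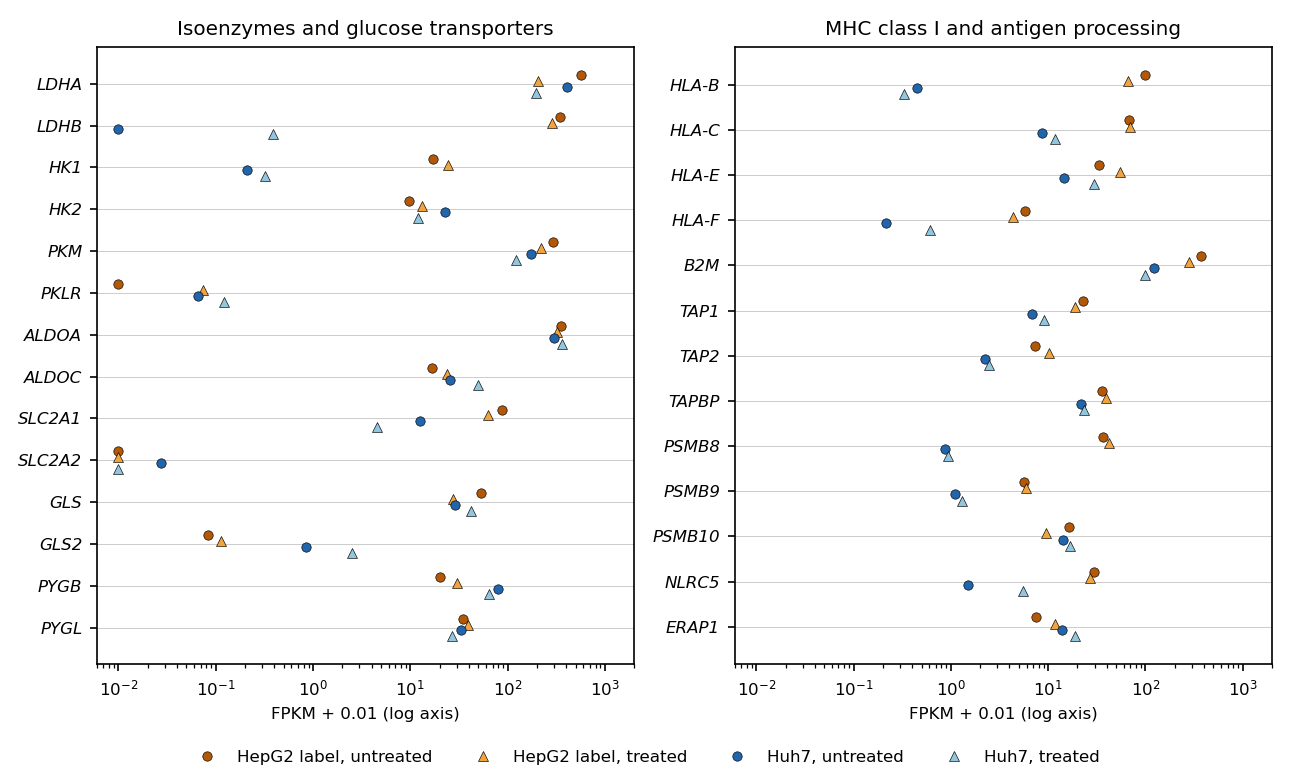
FPKM + 0.01 on a log axis in each of the 4 libraries for 14 isoenzyme and transporter genes (left) and 13 MHC class I and antigen processing genes (right); circles are untreated and triangles treated. LDHB and HK1 fall from 342 and 17.0 FPKM under the HepG2 label to 0 and 0.201 FPKM in untreated Huh7, while LDHA and HK2 overlap between the lines.

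Of 28 isoenzymes of liver and other tissues, 20 were tested. Of these, 2 were at least 4-fold higher in untreated Huh7 and 3 lower, beside 6.31% and 5.25% of all tested genes. With so few called, the list is described by single genes. LDHB, the heart-type subunit of lactate dehydrogenase, stood at 342 and 283 FPKM under the HepG2 label and at 0 and 0.381 FPKM in Huh7. The muscle-type LDHA was at 566 and 205 FPKM against 406 and 198 FPKM (adjusted p = 0.31, limma). For LDHB 33.4% of exonic bases overlap the readthrough gene AC010197.2, which runs into it. HK1, the housekeeping hexokinase, stood at 17.0 and 24.6 FPKM against 0.201 and 0.313 FPKM, while HK2 stood at 9.72 and 13.2 FPKM against 22.8 and 12 FPKM. PKLR, the liver and red cell pyruvate kinase, stayed under 0.2 FPKM in all 4 libraries. SLC2A1, the common glucose transporter, stood at 87.7 and 62.3 FPKM against 12.7 and 4.53 FPKM, and the liver transporter SLC2A2 under 0.1 FPKM in all 4.

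Growth factor receptors and cell cycle inhibitors also differed by member. ERBB3, a partner receptor of HER2, stood at 1.90 and 4.21 FPKM under the HepG2 label and at 36.0 and 25.5 FPKM in Huh7, and FGFR3 at 4.09 and 4.99 FPKM against 42.4 and 29.3 FPKM. ERBB2 itself stood between 13.6 and 16.9 FPKM in all 4. Of 25 receptors, 19 were tested, and 4 were at least 4-fold higher in untreated Huh7 and 3 lower. Of 19 cell cycle inhibitors and p53 targets, all tested, 5 were lower and 1 higher. Over all tested genes 6.31% were higher and 5.25% lower. CDKN2A, which encodes the RB pathway inhibitor p16, stood at 104 and 113 FPKM against 20.2 and 21.5 FPKM, and CDKN1C, an imprinted inhibitor, at 33.1 and 55.0 FPKM against 0.416 and 0.426 FPKM. Of 21 proliferation genes, only TOP2A was past 4-fold, and it was so in the untreated pair only.

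Of 25 genes of iron handling and ferroptosis defence, 23 were tested. Of these, 3 were at least 4-fold higher in untreated Huh7 and 2 lower, beside 6.31% and 5.25% of all tested genes. In the treated pair 2 of the 25 were higher and none lower. The ferritin chains were reversed: FTL, the light chain, stood at 842 and 2514 FPKM under the HepG2 label and at 5786 and 18302 FPKM in Huh7, 6.87-fold and 7.28-fold higher. FTH1, the heavy chain that oxidises iron, stood at 3078 and 6428 FPKM against 659 and 2296 FPKM, 4.67-fold and 2.80-fold lower. FTH1 is uncertain, as 62.4% of its exonic bases overlap BEST1. SLC40A1, ferroportin, the iron exporter, was at 0 under the HepG2 label, treated or not, and reached 32.1 and 37.4 FPKM in Huh7. TFRC, which brings iron in, stood at 137 and 78.7 FPKM against 60.1 and 34.0 FPKM. SLC7A11, the cystine importer, stood at 13.3 and 14.4 FPKM against 2.29 and 5.36 FPKM (adjusted p = 0.0039, limma), and GPX4 at 167 and 100 FPKM against 290 and 255 FPKM (adjusted p = 0.0065, limma). GCH1, of tetrahydrobiopterin synthesis, stood at 1.79 and 4.73 FPKM against 14.7 and 10.4 FPKM. AIFM2, a quinone reductase that also limits lipid peroxidation, stood at 27.4 and 31.4 FPKM against 21.8 and 17.1 FPKM (adjusted p = 0.10, limma).

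Housekeeping genes set a scale for these differences. Of 15, HPRT1 alone was past 4-fold in the untreated pair, at 68.5 and 63.1 FPKM against 15.4 and 27.0 FPKM, and of 13 mitochondrially encoded genes none was. By chromosome, the median log2 ratio was highest on chromosome 19, at 0.54 over 880 genes and 0.50 in the treated pair, and lowest on chromosome 21, at -0.37 over 120 genes and -0.35 in the treated pair. Chromosome X had the largest share of genes at least 4-fold lower in untreated Huh7, 11.5% of 416, beside 5.25% over all chromosomes.

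In the table of long noncoding transcripts, 101 of 1401 tested (7.21%) were at least 4-fold higher in untreated Huh7 and 43 (3.07%) lower. Among annotated transcripts the numbers were 31 and 33 of 1066. Transcripts of a locus can overlap, so these are not counts of separate loci. A transcript of LINC02381, in the HOXC region on chromosome 12, was at 0 under the HepG2 label, treated or not, and reached 10.8 and 7.16 FPKM in Huh7. SNHG8-203, from a small nucleolar RNA host gene, stood at 0.282 and 0.903 FPKM against 13.1 and 16.5 FPKM. A transcript of LINC00942 stood at 11.4 and 15.5 FPKM and was listed at 0 in both Huh7 libraries. HCP5-204, from the MHC class I region, stood at 7.05 and 5.35 FPKM against 0.00501 and 0 FPKM. MALAT1-202 did not keep its direction, at 50.2 and 6.71 FPKM under the HepG2 label and 19.9 and 49.4 FPKM in Huh7.

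Most of the higher noncoding transcripts lay in parts of the genome without annotated genes. Of 335 tested transcripts that carry assembler identifiers, 70 were at least 4-fold higher in untreated Huh7 and 10 lower, and 63 of the 70 lay in the longest gene-free stretch of chromosome 1, 5 or 19. In GENCODE 29 these stretches run from 121580525 to 143343179 on chromosome 1, from 45895971 to 50396191 on chromosome 5 and from 24163426 to 27638482 on chromosome 19, and each holds a centromere. On chromosome 5 the summed FPKM was 3.23 and 23.5 under the HepG2 label and 514 and 527 in Huh7. On chromosome 19 it was 0 and 0.803 against 291 and 273, and on chromosome 1 it was 0.109 and 0.273 against 53.8 and 62.2. Transcripts here can overlap in position, as LINC884, LINC885 and LINC888 do on chromosome 5. Counts and sums thus take some loci more than once. If the transcripts were assembled from these libraries, their listing depends in part on the line where they are high. No transcript was listed in the longest gene-free stretch of 13 other chromosomes. These 13 stretches do not all hold a centromere, as on chromosome 13 (103444969 to 104814326) and chromosome 15 (37491104 to 37921938). On X the sums were 0.235 and 0 against 5.66 and 35.0. Unplaced sequence was not all on the Huh7 side: transcripts on scaffold GL000225.1 summed to 48.7 and 61.5 FPKM under the HepG2 label and were listed at 0 in both Huh7 libraries. Reads from repeated sequence can be placed in several copies, and the sources used here do not say how the authors handled them.

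**Figure D5:**
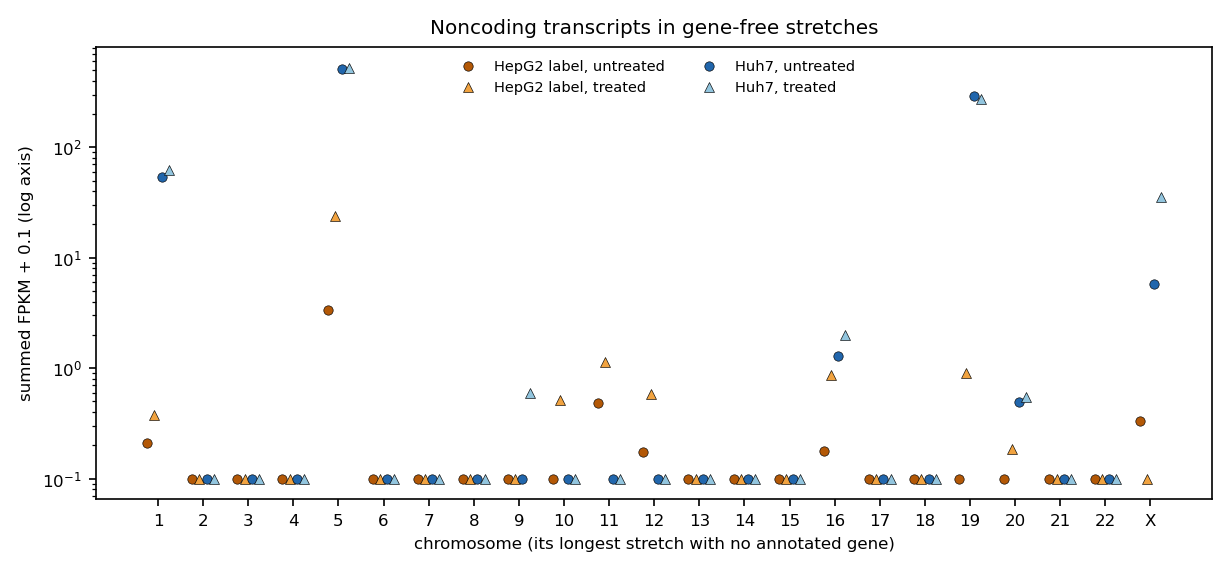
Summed FPKM + 0.1 on a log axis of the noncoding transcripts inside the longest gene-free stretch of each chromosome, for each of the 4 libraries; circles are untreated and triangles treated. Huh7 stands at 53.8 or more on chromosomes 1, 5 and 19, where the libraries labelled HepG2 stand at 23.5 or less.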

How the data were processed

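RNA of 4 libraries, 1 per group, was read with an Illumina TruSeq RNA kit from total RNA, per the labels' protocols; the sources used here do not say how RNA was selected or whether strand was kept. The deposited values are FPKM made by the authors, in 1 table of coding genes and 1 of long noncoding transcripts. The submitters' processing notes name HISAT2, Bowtie2 2.2.8, StringTie 1.3.1 and Cuffdiff 2.1.1 among their tools. Gene identifiers matched GENCODE 29 for 19664 of 19739 coding genes, and 19632 overlapped the position given there, so coordinates are GRCh38. Promoters are RefSeq's, GRCh38.p14. The files hold no counts. Depth was inferred from the spacing of low values, and 28.0% to 38.1% of the values examined lay within 2% of a step, against 2.0% to 2.3% for the median candidate.

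The ratio was log2((FPKM + 1)/(FPKM + 1)), Huh7 over the HepG2 label. Genes were kept where either library had 1 FPKM or more, and 4-fold was the size counted. The line term was tested with limma 3.58.1 in R 4.3.3 (trend, Benjamini-Hochberg threshold 0.05), and the fit was tested on simulated data. With 1 library a group, p-values measure only the spread among these libraries, which may be technical. Text was drawn from 36 gene lists; members and lists were chosen with earlier results of these data known. Genes were named by rule: the part's markers, the 15 highest and 15 lowest ratios that also held in the treated pair, up to 8 members a list by size with further members of lists of at most 30 genes where a level was needed, all isoenzymes, and the 10 highest and 10 lowest noncoding transcripts. Genes that overlap another gene's exons, or share 50-base words with one, are uncertain, and this is given beside those the text rests on.

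Alternatives were another pseudocount, filter, fold and scaling, the treated pair, overlapping genes left out, and each library left out of the limma fit. Some genes of the lists are counted but not reported by name here.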

Additional observations from a re-analysis of the deposited data

Results flagged for a closer look

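Among the 294 named genes, 3 were past 4-fold in the untreated pair and had the opposite sign in the treated pair, where 10 of the 785 higher and 8 of the 653 lower genes over the whole table did; whether the 2 pairs differ was not tested. TOP2A, the topoisomerase of dividing cells, had a log2 ratio of -2.108 untreated and 0.091 treated, from 71.8 and 33.5 FPKM under the HepG2 label and 15.9 and 35.7 FPKM in Huh7. GDF15, a secreted stress cytokine, had 2.467 and -0.381, from 24.2 and 449 FPKM against 138 and 345 FPKM. TGFBR1, a receptor of TGF-beta, had -2.992 and 0.698, from 30.6 and 4.64 FPKM against 2.97 and 8.14 FPKM.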

How the results depend on the processing

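Within the untreated pair, at 2-fold, 2174 coding genes were higher in untreated Huh7 and 2145 lower, and at 16-fold 158 and 117. With a pseudocount of 0.1 the counts were 1363 and 1116, and with overlapping genes left out 490 and 400 of 6229 tested. Noncoding transcripts numbered 421 higher and 257 lower at 2-fold, 12 and 0 at 16-fold, 426 and 243 with a pseudocount of 0.1, and 55 and 19 with a minimum of 5 FPKM; the treated pair had 66 lower. With all 4 libraries, limma's line term called 2418 genes higher and 2487 lower with the treatment term, and 1816 and 1790 without it. Leaving out 1 library at a time leaves no residual degree of freedom for the treatment term, so those fits have the line term alone and called 522 to 791 genes higher and 199 to 986 lower; the lone library of a line is then assumed to vary like the others. Without the untreated Huh7 library the counts were 791 and 212, without treated Huh7 747 and 199, without the untreated library labelled HepG2 522 and 986, and without its treated library 627 and 791. Of 294 named genes, 254 kept their call in the treated pair, 27 lost it, 10 gained one and 3 reversed: TOP2A at 0.091, GDF15 at -0.381 and TGFBR1 at 0.698. Rescaling to the same sum moved 1 call and median-of-ratios scaling 3; the causes were not tested. No paired analysis was possible because the labels give no replicate numbers and each group is 1 library. FPKM without counts gives no interval for low genes.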

Other observations

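A few gene families outside the lists also divided the lines; they were chosen after their values were seen, and no test was made of a family. Over all tested genes 6.31% were at least 4-fold higher in untreated Huh7 and 5.25% lower. Of 11 metallothioneins, small metal-binding proteins, 7 were tested and 4 were at least 4-fold higher in untreated Huh7. MT1G stood at 0 and 0.105 FPKM under the HepG2 label and at 31.4 and 151 FPKM in Huh7, and MT1F, at 0 under that label, read 47.3 and 98.7 FPKM in Huh7. MT2A, the most general member, stood at 89.3 and 219 FPKM against 87.4 and 309 FPKM. Of 40 CXC and CC chemokines, which draw leukocytes, 10 were tested, 6 were at least 4-fold higher in untreated Huh7 and none lower. CXCL1, CXCL5 and CCL20 were at 0 under the HepG2 label, treated or not, and in untreated Huh7 read 63.0, 67.8 and 77.1 FPKM. CXCL8 stood at 0.545 and 1.74 FPKM against 60.0 and 34.0 FPKM.

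The asialoglycoprotein receptor, by which hepatocytes clear desialylated proteins, was on the Huh7 side in both subunits, with ASGR1 at 0.0894 and 0.541 FPKM against 15.8 and 10.9 FPKM and ASGR2 at 0 and 0.0586 FPKM against 89.0 and 80.2 FPKM. Of 10 histone H3 genes of the HIST1 cluster, all tested, 1 was at least 4-fold higher in untreated Huh7 and 1 lower, too few to set against the shares of all tested genes. HIST1H3G stood at 168 and 95.4 FPKM against 0.190 and 0.388 FPKM, while HIST1H3I stood at 0 and 0.0476 FPKM against 139 and 116 FPKM. The 10 genes of this kind summed to 5032 and 2603 FPKM under the HepG2 label and 3651 and 2578 FPKM in Huh7. Their near-identical coding sequences make the split between copies uncertain.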
